A study of Mus musculus with 12 samples.

Results

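Cathepsins are the proteases of the lysosome, and cystatin C is a secreted inhibitor of most of them. The mRNAs described here are those of 9 cathepsins (Ctsa, Ctsb, Ctsc, Ctsd, Ctsf, Ctsh, Ctsl, Ctss and Ctsz) and of cystatin C (Cst3), 10 of the 55809 gene symbols counted in 12 RNA sequencing libraries of sorted mouse cells. The genes were taken by symbol, and all 10 were found in both count tables. Ctsd and Cst3 had been picked for how they differed between the first pair of groups below, so that comparison is given for the 10 genes as a description, with no test.

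The series set out to find regulators of Mc4r, whose product is a melanocortin receptor that limits feeding. In the first pair of groups, untreated Mc4r-Cre; Ai14 mice gave hypothalamus at 4 weeks of age. Ai14 is a reporter allele that makes the red protein tdTomato (TOM) in any cell in which Cre has acted, so TOM marks past as well as present activity of the Mc4r-Cre driver. TOM positive cells were sorted from TOM negative ones. The second pair used Otp fl/fl; Ai14 mice, whose paraventricular hypothalamic nucleus (PVH) was taken at 26 weeks of age, 12 weeks after an adeno-associated virus (AAV) had been injected. Mice of both AAV groups carried the floxed Otp allele and Ai14. AAV-Cre deletes Otp, a transcription factor gene of hypothalamic neurons, in the cells it enters and turns on TOM, by which those cells were sorted, while the control AAV-GFP cells were sorted by GFP. Each group had 3 libraries. The labels do not state whether these came from different animals, so p-values measure only the spread between libraries, which may be technical.

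Cathepsins are made as inactive precursors, tagged in the Golgi for delivery to the lysosome, and activated there at low pH. Ctsb, Ctsc, Ctsf, Ctsh, Ctsl, Ctss and Ctsz encode cysteine proteases, Ctsd an aspartic protease and Ctsa a serine carboxypeptidase. Cystatin C inhibits the cysteine enzymes and not the aspartic or serine one. In brain, lysosomal proteases are abundant in microglia, the resident phagocytes, while cystatin C mRNA is known from microglia and astrocytes. Many lysosomal genes carry an E-box near their start site, which is bound by the TFE factors that set lysosome number, and genes of phagocytes often carry a purine-rich site bound by PU.1.

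Promoter sequences were looked at because all 10 mRNAs were lower in the same libraries. RefSeq windows of 300 bases (250 before to 50 after a start site, build GRCm38.p6) were found for 8 of the 10 genes, and Ctsb and Ctsh had no entry. The E-box CACGTG, which reads the same on both strands, was present for Ctsa, Ctsd, Ctsf and Ctsl, 4 of the 8 genes. By window it was in 4 of their 9 windows and in 7.15% of all 32851 windows. The longer form TCACGTGA, which contains CACGTG, was present for Ctsa and Ctsd, in 2 of the 9 windows and in 0.974% of all windows. GAGGAAGT, a PU.1-type sequence searched on both strands, was present for Ctsc and Ctss, in 2 of the 9 windows and in 3.2% of all windows. These matches are letters in a window and were not tested as binding sites. The stretches of 30 bases that hold them are shown 5′ to 3′ on the strand of the gene, with the match in capitals. Those with CACGTG come first, at chr7:142387908-142387937 and chr7:142388048-142388077 for Ctsd (minus strand), chr2:164833758-164833787 for Ctsa (plus), chr19:4855074-4855103 for Ctsf (plus) and chr13:64370739-64370768 for Ctsl (minus). Those with the reverse complement ACTTCCTC follow, at chr3:95526773-95526802 for Ctss and chr7:88277923-88277952 for Ctsc, both on the plus strand.
Ctsd near the start site: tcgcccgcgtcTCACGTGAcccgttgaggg
Ctsd farther upstream: tccccCACGTGacctgtatccagtcattct
Ctsa: tgTCACGTGAtgcagatgcTCACGTGAcca
Ctsf: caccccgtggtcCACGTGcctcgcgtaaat
Ctsl: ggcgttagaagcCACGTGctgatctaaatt
Ctss: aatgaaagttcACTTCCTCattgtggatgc
Ctsc: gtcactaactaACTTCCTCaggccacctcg
In Ctsa, copies of TCACGTGA began 13 bases before and at base 5 after the start site, and in Ctss the PU.1-type sequence began 2 bases before it. The 4 genes with CACGTG and the 2 with GAGGAAGT did not share members.

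Libraries held 13506018 to 27827853 counts, and the smallest count of any of the 10 genes in any library was 299 (Ctsh, TOM positive replicate 1), so each was measured far above zero everywhere. The largest was 656731 (Cst3, TOM negative replicate 1). Genes with at least 1 count numbered 16011 to 18160 in TOM positive and 18453 to 19023 in TOM negative libraries. They numbered 14747 to 16988 in AAV-Cre and 20778 to 23902 in AAV-GFP libraries, without overlap. This difference cannot be told apart from that between the AAV groups, and its part in the levels below was not tested. Levels below are CPM (counts scaled to a library total of 1000000) on TMM-scaled library totals, a scaling that balances libraries on the bulk of their genes. The 10 genes together took 0.749% ± 0.114 of all counts in TOM positive, 4.24% ± 0.585 in TOM negative, 1.60% ± 0.454 in AAV-Cre and 1.41% ± 0.429 in AAV-GFP libraries (SD, n = 3 each). In bulk libraries, fewer cells of a type and less mRNA per cell cannot be told apart. The AAV libraries were counted without strand, and the strand setting for the TOM libraries is not known. Exons of Ctsa overlap Pltp by 495 bases and Neurl2 by 324, those of Ctsb overlap Fdft1 by 774 and those of Ctsz overlap Nelfcd by 10, all on the opposite strand, so unstranded reads there cannot be assigned. Exons of Ctsd overlap the predicted gene Gm49369 by 808 bases on the same strand, and those of Ctsl overlap Gm49230 by 395 on the same strand and Gm47123 by 1742 on the opposite one. These 3 predicted genes had 0 counts in every library, and the share of Ctsd and Ctsl reads lost to shared bases, which would bear on their levels per kilobase, was not tested.

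Marker genes show what the sorted libraries held. The summed CPM of 10 neuron markers was 411 to 489 in TOM positive libraries, against 62.6 to 104 in TOM negative ones, and 5 of the 10 rose. That of 8 oligodendrocyte markers was 76279 to 86547 against 18621 to 24567, and all 8 rose. For 15 microglia markers the sum was 379.8 to 915 against 22455 to 27044, all 15 fell, with a median log2 fold change of -5.25, and none was at 0 in a whole group. Blood cell markers summed to 224 to 444 against 22618 to 51401 (5 of 7 fell) and astrocyte markers to 10214 to 14012 against 20436 to 21485 (3 of 10 fell). Border macrophage markers summed to 17.7 to 43.7 against 7.70 to 11.9 CPM, and none of 6 passed. Endothelial markers summed to 0 to 57.3 against 218 to 334 CPM (3 of 8 fell) and ependymal markers to 21.2 to 29.8 against 55.9 to 81.9 CPM (1 of 4 fell). Mural cell markers summed to 21.3 to 24.8 against 27.1 to 77.9 CPM, and 2 of 5 fell, Pdgfrb and Kcnj8. Kcnj8 was at 0 in all TOM positive libraries, so its call rests on TOM negative counts alone. These calls are edgeR quasi-likelihood tests with Benjamini-Hochberg adjusted p under 0.05. The part of these differences in the cathepsin levels below was not tested.

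**Figure D1:**
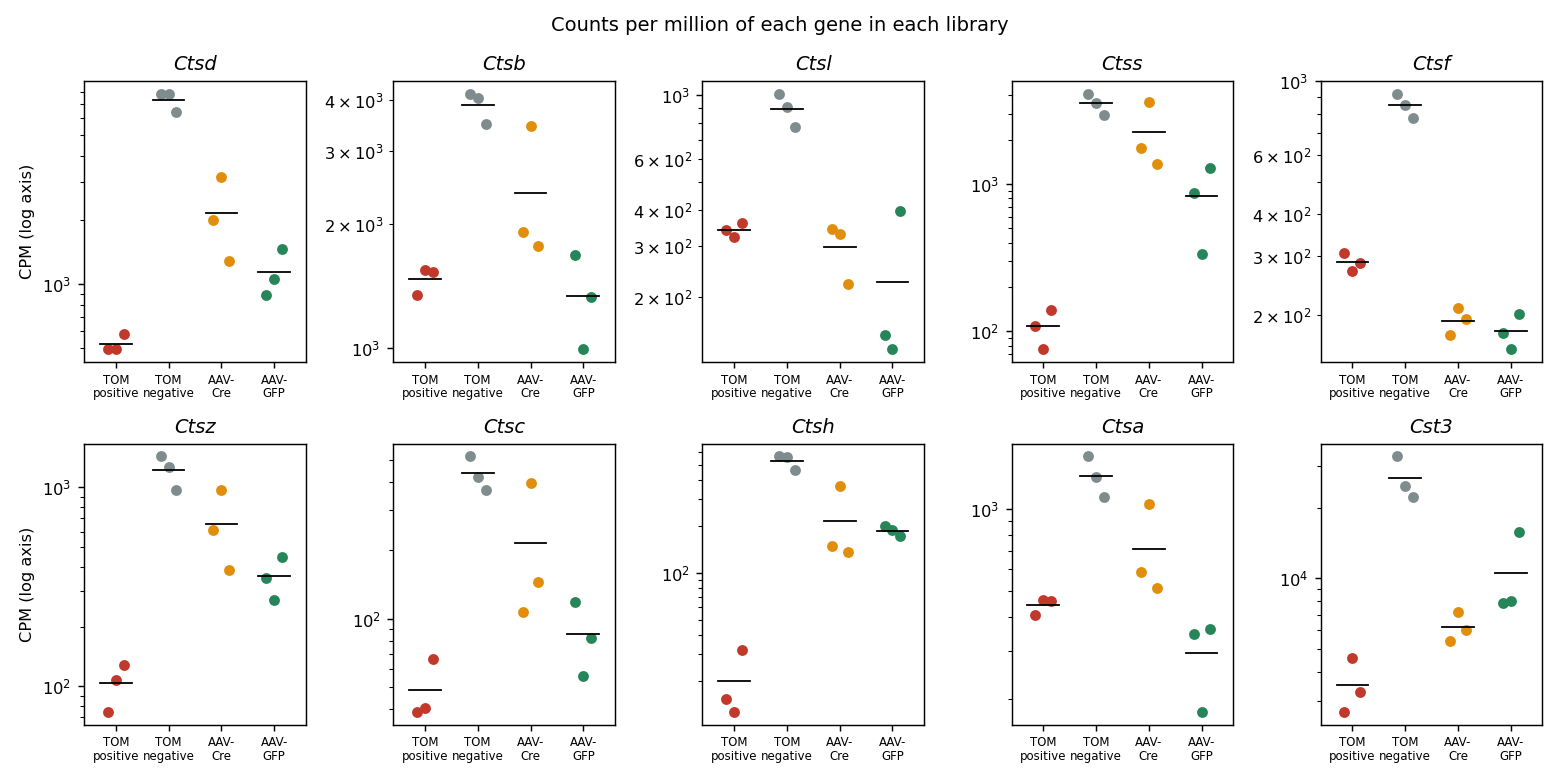
CPM (log axis, scaled differently in each panel) of the 9 cathepsin genes and Cst3 in each of the 12 libraries, in the order replicate 1, 2, 3 within a group, with a line at the group mean. In all 10 plots each TOM positive library is lower than each TOM negative one, while the AAV-Cre and AAV-GFP libraries overlap in 6 of them.

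All 10 mRNAs were lower in TOM positive than in TOM negative cells, and the groups did not overlap for any of them. Their log2 fold changes ran from -5.03 to -1.39 with a median of -3.05, beside a median of -0.02 over all 15228 genes tested, of which 50.9% were below 0. Of all genes tested, 25.6% were lower without overlap, 13.4% were called lower (23.9% in either direction) and 6.99% had a log2 fold change below -3. Nothing is read from this setting, since the genes were picked on this contrast. The count of 3635 called genes was 1511 without TOM negative replicate 2.

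Ctsd encodes the main aspartic protease of the lysosome. TOM positive replicates 1, 2 and 3 had 497, 495 and 585 CPM, and the TOM negative ones 7784, 7811 and 6403 CPM. The TOM negative mean was 14.0-fold higher, a log2 difference of -3.80 ± 0.16 (SE) for TOM positive cells. Replicates were close, with 525 ± 51.4 CPM against 7332 ± 805 CPM (SD, n = 3 each). The gene lies on chromosome 7, 141929648 to 141941775, minus strand, in the GENCODE vM30 annotation, which gives every position that follows.

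Cst3 (chromosome 2, 148713642 to 148717612, minus strand) encodes cystatin C and was the most abundant of the 10 in every library, per kilobase of exon as well. It stood at 2695, 4557 and 3260.3 CPM in the TOM positive libraries, all far under the 33035, 24777 and 22176 CPM of the TOM negative ones. The TOM negative mean was 7.61-fold higher, with a log2 difference of -2.93 ± 0.25 for TOM positive cells. The TOM positive libraries spread more than for Ctsd, with replicate 2 the highest.

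Among the cysteine cathepsins, the difference was largest for Ctss and Ctsh. Ctss (chromosome 3, 95434097 to 95463714, plus strand) encodes cathepsin S, which trims the invariant chain of class II antigen presentation and stays active at neutral pH. Its level was 108, 75.6 and 139.7 CPM in the TOM positive libraries, against 4085, 3519 and 2946 CPM, 32.6-fold apart in the means (log2 difference -5.03 ± 0.28). Ctsh (chromosome 9, 89936205 to 89958142, plus strand), an aminopeptidase gene, stood at 15.3, 12.7 and 31.9 CPM against 565, 563 and 463 CPM, 26.5-fold apart. Its log2 difference was -4.73 ± 0.39, or -5.25 without TOM positive replicate 3, the highest of its group.

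Ctsz and Ctsc came next. Ctsz (chromosome 2, 174269286 to 174280832, minus strand) encodes cathepsin Z, a carboxypeptidase. It had 74.6, 108 and 128 CPM in the TOM positive libraries, against 1430.1, 1267 and 968 CPM, 11.8-fold apart (log2 difference -3.56 ± 0.26). Ctsc (chromosome 7, 87927293 to 87960096, plus strand) encodes dipeptidyl peptidase I, the activator of serine proteases stored in granules of immune cells. It had 38.8, 40.4 and 66.3 CPM against 517, 421 and 368 CPM, 8.97-fold apart (log2 difference -3.16 ± 0.27). For 6 of the 10 genes (Ctsc, Ctsd, Ctsh, Ctsl, Ctss and Ctsz), TOM positive replicate 3 was the highest library of its group, as it also was for the summed microglia markers. Among TOM negative libraries, replicate 1 was the highest for 9 of the 10 genes, all but Ctsd. The microglia sum was highest in TOM negative replicate 2 instead (27044 CPM, against 25620 in replicate 1). TOM negative replicate 3 was the lowest for all 10 genes and for that sum.

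Ctsa, Ctsf, Ctsb and Ctsl differed least, between 2.63-fold and 2.98-fold. Ctsb (chromosome 14, 63359911 to 63383372, plus strand) is a broadly expressed endopeptidase gene. It had 1343, 1541 and 1522 CPM in the TOM positive libraries, against 4132, 4036 and 3494 CPM (log2 difference -1.40 ± 0.13). Ctsl (chromosome 13, 64507151 to 64518704, minus strand), an endopeptidase gene, had 342, 324 and 360.2 CPM against 1011, 909 and 775 CPM (log2 difference -1.39 ± 0.15). Ctsf (chromosome 19, 4905158 to 4910946, plus strand), whose loss causes a form of neuronal ceroid lipofuscinosis in humans, had 305, 270.1 and 285 CPM against 917, 849 and 777 CPM (log2 difference -1.56 ± 0.13). Ctsa (chromosome 2, 164674793 to 164682952, plus strand), which also shields beta-galactosidase and neuraminidase in a complex, had 406, 462 and 459 CPM against 1552, 1305 and 1099 CPM (log2 difference -1.58 ± 0.16). The TOM positive means of these 4 genes were 287 to 1469 CPM.

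**Figure D2:**
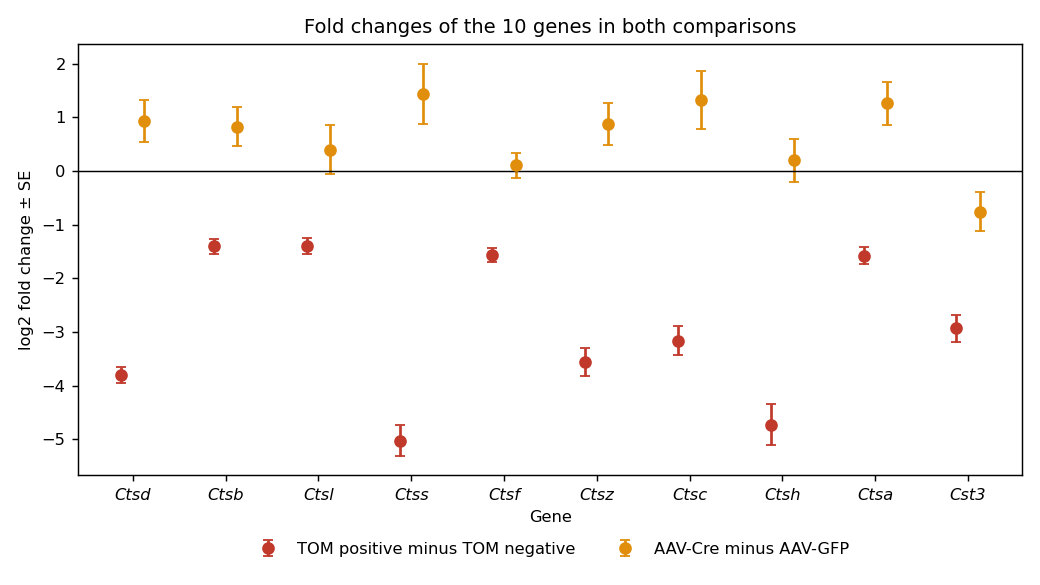
Log2 fold change ± SE of each gene in TOM positive minus TOM negative cells (red) and in AAV-Cre minus AAV-GFP cells (orange), 3 libraries a group. The red points run from -5.03 for Ctss to -1.39 for Ctsl, and in the AAV comparison Cst3 is the only one of the 10 genes below 0.

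Each gene was also set against the microglia markers of the same library, as its CPM over the summed CPM of the 15 markers. For Ctss this ratio was 0.192 ± 0.0359 in TOM positive libraries, against 0.140 ± 0.0167 in TOM negative ones (SD, n = 3 each), and the groups overlapped. For Ctsh it was 0.0333 ± 0.00162 against 0.0212 ± 0.000785, without overlap. The ratio for Ctsd was 0.988 ± 0.334 against 0.293 ± 0.00990, and for Ctsb it was 2.83 ± 1.20 against 0.155 ± 0.00602. Cst3 stood at 7.04 ± 4.41 against 1.06 ± 0.198. In TOM positive libraries the ratios of Ctsb spread from 1.66 to 4.06, while its own CPM ranged only from 1343 to 1541.

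**Figure D3:**
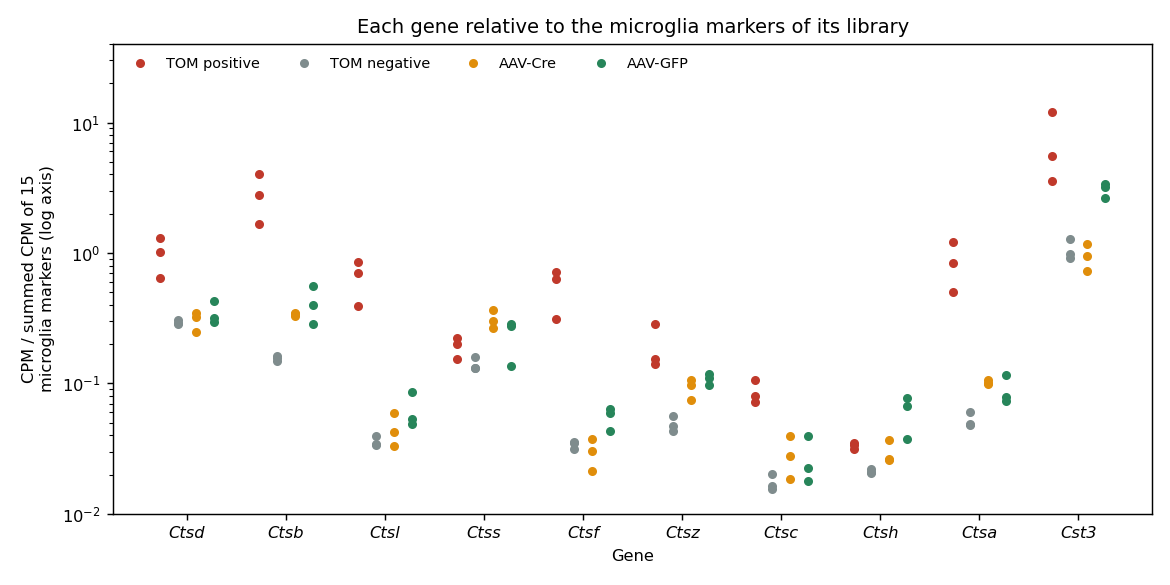
Ratio of each gene's CPM to the summed CPM of 15 microglia markers in the same library (log axis), with 3 points a group. For every gene but Ctss the TOM positive points (red) lie above the TOM negative ones (grey) without overlap, while the Ctss points of these groups overlap. The marker sum was far lower in TOM positive libraries, so any gene that fell less than the sum has a higher ratio there. The share of all genes with such a separation is not given here.

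Per kilobase of exon, levels of different genes can be compared roughly. The length used counts all annotated exons, with 1266 bases for Cst3, 1358 for Ctss, 6051 for Ctsb and 6489 for Ctsl. Where an mRNA holds only part of these, its level per kilobase is understated, which was not tested. Cst3 led in all 4 groups. Its mean was 2768 CPM per kilobase in TOM positive libraries, 21061 in TOM negative ones, 4904 in AAV-Cre and 8308 in AAV-GFP libraries. Its range lay clear of the next gene in each group. In TOM positive cells Ctsb (243 CPM per kilobase) and Ctsd (223) followed, with ranges that overlapped, then Ctsa (93.8), Ctss (79.4), Ctsz (71.9), Ctsf (56.9) and Ctsl (52.7), of which no neighbours were separated. Ctsc (8.35) and Ctsh (4.44) were lowest. In TOM negative cells Ctsd (3119 CPM per kilobase) and Ctss (2590) overlapped at the top of the cathepsins, and Ctsz (848), Ctsb (642), Ctsa (279.7), Ctsf (168), Ctsl (138), Ctsh (118) and Ctsc (74.9) followed.

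The makeup of the cathepsin mRNA pool, taken per kilobase, differed accordingly. These shares depend on the exonic lengths. By CPM alone, mean Ctsb was above mean Ctss in TOM negative (3888 against 3517) and AAV-Cre (2373 against 2243) libraries. Of the 9 cathepsins' summed CPM per kilobase, Ctsb took 29.2% ± 2.15 in TOM positive libraries, against 8.09% ± 0.390 in TOM negative ones (SD, n = 3 each). Ctss took 9.46% ± 2.26 against 32.4% ± 1.32, and Ctsd 26.8% ± 0.635 against 39.2% ± 1.65. In AAV-Cre libraries Ctss led with 43.5% ± 2.87, ahead of Ctsd with 24.7% ± 2.14, and in AAV-GFP libraries Ctss took 32.6% ± 10.4 and Ctsd 28.8% ± 8.10. The AAV-GFP libraries disagreed among themselves, since Ctsd led in replicate 2 with 37.7% and Ctss led in replicates 1 and 3 with 36.6% and 40.5%.

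**Figure D4:**
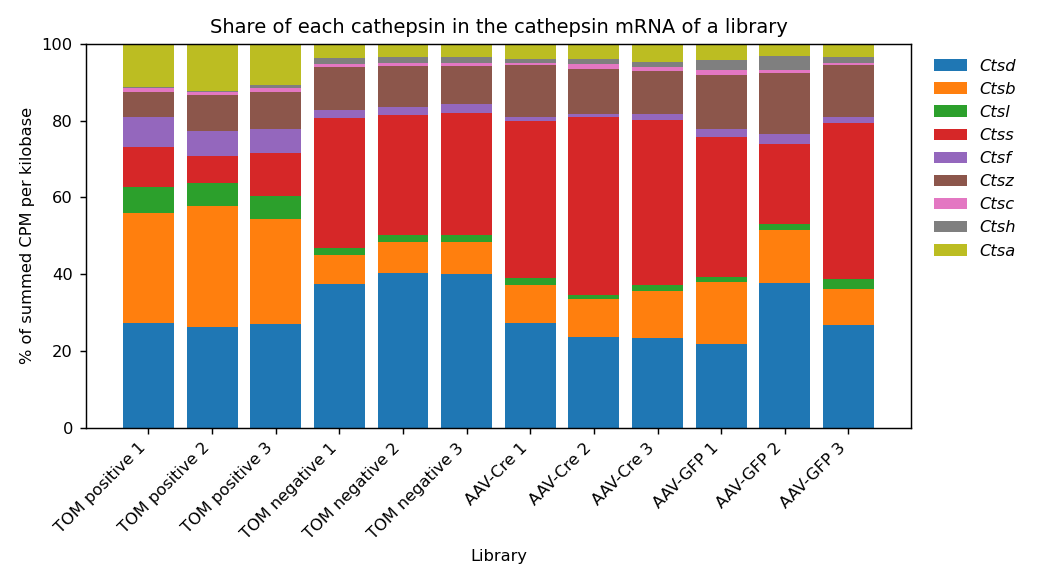
Share of each of the 9 cathepsin genes in their summed CPM per kilobase of exon, one bar a library. The TOM positive bars carry Ctsb shares (orange) of 27.3% to 31.5% and Ctss shares (red) of 6.90% to 11.2%, whereas the TOM negative, AAV-Cre and AAV-GFP bars carry Ctss shares of 20.8% or more.

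Cst3 was also compared with the 9 cathepsins summed, per kilobase, a sum that includes Ctsd and Ctsa, whose enzymes cystatin C does not inhibit. The ratio was 2.75, 4.46 and 2.80 in TOM positive libraries, which overlapped the TOM negative ones at 2.94, 2.37 and 2.57. It was 1.37, 0.988 and 2.04 in AAV-Cre and 3.58, 5.31 and 5.35 in AAV-GFP libraries, which did not overlap. Mean Cst3 was lower and the mean of each of the 9 cathepsins was higher after AAV-Cre. Over the 7 cysteine cathepsins alone, the ratio was 4.47, 7.22 and 4.49 in TOM positive libraries and 4.98, 4.22 and 4.54 in the TOM negative ones, with overlap. In AAV-Cre libraries it was 1.98, 1.36 and 2.82, without overlap with the 4.84, 8.98 and 7.65 of the AAV-GFP ones. Neither ratio was tested.

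Across the 4 groups, all 10 genes had their highest mean in TOM negative cells. The share of all genes with this or any order or gap below is not given here, so nothing is read from them. Each table was scaled on its own, and the pairs differ in age, genotype, dissection and sort, so these levels are set side by side only. The order TOM negative, AAV-Cre, AAV-GFP, TOM positive held for Ctsc, Ctsd, Ctsh, Ctss and Ctsz. Of these, Ctsd, Ctsh, Ctss and Ctsz had AAV-GFP libraries clear above the TOM positive ones, and Ctsc had no clear step anywhere in its order. Ctsa and Ctsb were ordered TOM negative, AAV-Cre, TOM positive, AAV-GFP, with the last step clear for Ctsa only. For Ctsf and Ctsl the order was TOM negative, TOM positive, AAV-Cre, AAV-GFP, and the AAV groups of both genes overlapped. Cst3 was ordered TOM negative, AAV-GFP, AAV-Cre, TOM positive, with no overlap at any step.

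The AAV comparison set PVH cells sorted by TOM after AAV-Cre against those sorted by GFP after AAV-GFP. Neither sort selected cells by Otp. Otp itself had 12, 9 and 10 counts in AAV-Cre replicates 1, 2 and 3 and 91, 102 and 38 in the AAV-GFP ones, in the direction the labels give. The summed CPM of the 15 microglia markers was 5168 to 9889 in AAV-Cre and 2471 to 4630 in AAV-GFP libraries, without overlap, with a median log2 fold change of 0.96, and 1 of the 15, Csf1r, rose. That of the 7 blood cell markers was 0.312 to 42.7 against 708 to 4692. Of the 5 tested 2 fell, Hba-a2 and Alas2. Alas2, like the untested S100a9, was at 0 in all AAV-Cre libraries. Ependymal markers summed to 14.4 to 22.8 against 707 to 1479.8 CPM, and 3 of 4 fell. Endothelial markers summed to 22.3 to 36.4 against 207 to 254 CPM, and the 1 of 7 tested that fell was Emcn. Emcn, like the untested Cdh5, was at 0 in all AAV-Cre libraries, and it passed in no fit with 1 library left out. Mural cell markers summed to 29.1 to 72.2 against 78.3 to 95.1 CPM, and the 1 of 5 that fell was Acta2, also at 0 in all AAV-Cre libraries. The calls of genes at 0 rest on counts of the AAV-GFP libraries alone. Border macrophage markers summed to 1.29 to 15.05 against 2.46 to 13.8 CPM, and none of 4 tested passed. Oligodendrocyte markers summed to 47400 to 61120 against 14396 to 53391 CPM (1 of 8 rose), neuron markers to 1968 to 2354 against 1314 to 2336 CPM (none of 10 passed) and astrocyte markers to 10431 to 13270 against 9067 to 22417 CPM (none of 10 passed). Their part in the values below was not tested.

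None of the 10 genes passed edgeR's quasi-likelihood test between AAV-Cre and AAV-GFP cells, with adjusted p of 0.142 or more. Of all 15408 genes tested, 2.6% were called, 0.63% higher and 1.97% lower. Those 400 genes became 122 without AAV-Cre replicate 2, 0 without AAV-GFP replicate 1 or 3 and 2 without AAV-GFP replicate 2. At an unadjusted p under 0.05 stood 4 of the 10, beside 18.8% of all genes tested. DESeq2 called 1 of the 10, Ctsa, beside 9.94% of all genes. Of the 10 log2 fold changes 9 were above 0 (42.8% of all genes), with a median of 0.85, beside -0.16 over all genes tested, and without AAV-Cre replicate 2 the median was 0.46. The groups did not overlap for 3 genes higher and 1 lower in AAV-Cre cells, beside 9.85% and 18.6% of all genes.

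Ctsa had 583, 1042 and 511 CPM in AAV-Cre replicates 1, 2 and 3 and 345, 179 and 362 CPM in the AAV-GFP ones. The groups did not overlap, and the log2 fold change was 1.27 ± 0.40 (edgeR adjusted p = 0.142). With DESeq2 it was 1.31 (adjusted p = 0.0289), and over all alternatives the adjusted p ran from 0.0289 to 0.381. Part of the Ctsa exons is shared with Pltp on the opposite strand.

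Ctss had 1744, 3618 and 1367 CPM in AAV-Cre and 861, 336 and 1276 CPM in AAV-GFP libraries, again without overlap. Its log2 fold change was 1.44 ± 0.56 (edgeR adjusted p = 0.22), or 0.91 without AAV-Cre replicate 2. Against the microglia markers of the same library the ratio was 0.311 ± 0.0513 in AAV-Cre and 0.233 ± 0.0841 in AAV-GFP libraries, which overlapped. Ctsb also separated the groups, with 1911, 3446 and 1762 CPM against 1682, 992 and 1327 CPM (log2 fold change 0.83 ± 0.36, edgeR adjusted p = 0.271).

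Cst3 was the only one of the 10 on the other side of 0. It had 5427, 7156 and 6043 CPM in AAV-Cre and 7851, 7981 and 15723 CPM in AAV-GFP libraries, a mean 1.69-fold lower after AAV-Cre. The groups did not overlap, and the log2 fold change was -0.76 ± 0.36 (edgeR adjusted p = 0.313), or -0.27 without AAV-GFP replicate 3, the highest library. Over the microglia markers, Cst3 stood at 0.944 ± 0.223 in AAV-Cre and 3.08 ± 0.410 in AAV-GFP libraries, with no overlap.

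Ctsd had 2003, 3181 and 1283 CPM in AAV-Cre and 890.1, 1052 and 1460.2 CPM in AAV-GFP libraries, which overlapped (log2 fold change 0.93 ± 0.39, edgeR adjusted p = 0.258). Its ratio to the microglia markers was 0.306 ± 0.0513 against 0.346 ± 0.0698, also with overlap. Ctsc (107, 393 and 144 CPM against 118, 55.9 and 82.0 CPM) had a log2 fold change of 1.33 ± 0.54, or 0.55 without AAV-Cre replicate 2, and Ctsz one of 0.87 ± 0.39. Ctsl and Ctsf had log2 fold changes of 0.40 ± 0.46 and 0.11 ± 0.24, with edgeR adjusted p of 0.711 and 0.866. For Ctsh it was 0.20 ± 0.41, and -0.40 without AAV-Cre replicate 2.

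Single libraries weighed on these values. AAV-Cre replicate 2 was the highest of its group for 9 of the 10 genes, all but Ctsl, and it also had the highest sum of microglia markers in that group. AAV-GFP replicate 2 was the lowest of its group for 7 of the 10 and had the lowest sum of microglia markers there. Ctsf varied little, with 174 to 209 CPM in AAV-Cre and 158 to 201 CPM in AAV-GFP libraries.

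Genes whose level followed a given member most closely over the 12 libraries were ranked by the root mean square difference of log2 CPM, after each gene was centred within its own table, among 10931 genes. The centring keeps the difference between TOM groups, by which Ctsd and Cst3 had been picked, so the ranking largely repeats that comparison. The 5 genes closest to Ctsd had TOM log2 fold changes of -4.43 to -3.35. The ranking is a description only. For Ctsd the closest were Ctsz (0.21), Grn (0.22), Rab3il1 (0.31), Csk (0.33) and Btg2 (0.37), beside a median of 1.59 over all genes compared. For Ctss they were Cd68 (0.26), Pld4 (0.30), C1qc (0.32), Fcgr3 (0.34) and Cd53 (0.35), beside a median of 2.08. For Cst3 they were Vamp8 (0.22), Gpx1 (0.31), Tmem176a (0.33), Ptp4a3 (0.34) and Tmem176b (0.35), beside a median of 1.33. C1qc is in the microglia list and Cd68 and Grn are in the lysosomal lists. Apart from Ctsz for Ctsd, none of the 10 genes was among the 5 closest to another of these. The closest cathepsin to Cst3 was Ctsf (0.63), in place 192 of the ranking.

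Other genes of the lysosomal pathway, 130 genes that are none of the 10, were looked up in both comparisons, and those that passed the count filter were tested. Between TOM positive and TOM negative cells 108 of them were tested. Of these, 45 fell (41.7%, beside 13.4% of all genes) and 5 rose (4.63%, beside 10.4% of all genes), with a median log2 fold change of -0.79. The lists were chosen with earlier results of these data known, and 3 of the 108 (Acp5, Ctse and Ctsw) had no count in any TOM positive library. These 3 passed the count filter through the TOM negative libraries alone, and all 3 are counted among the 45. The median stayed at -0.79 when they were set to the bound that 3 counts over the group allow. Of the 50 that passed, 30 passed with any 1 library left out, and 31 genes passed without TOM negative replicate 2. Microglia markers differed between these groups in the same direction, as given above, and their part was not tested.

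Among lysosomal hydrolases and their activators, 28 of 41 fell and none rose. Pla2g15, a lysosomal phospholipase gene, fell by 4.62 ± 0.36 on the log2 scale. Lgmn, the asparaginyl endopeptidase that processes several cathepsins, averaged 454 ± 62.0 CPM in TOM positive cells against 2757 ± 248 CPM in TOM negative ones (log2 fold change -2.60 ± 0.16, edgeR adjusted p = 0.000131). Grn, whose progranulin is cut by cathepsins, fell by 3.35 ± 0.18, and Psap, the precursor of saposins cut by cathepsin D, by 1.20 ± 0.15. Of the enzymes that Ctsa protects, Glb1 fell by 1.63 ± 0.22 on the log2 scale (edgeR adjusted p = 0.00279) and Neu1 by 0.86 ± 0.19 (edgeR adjusted p = 0.0167, with up to 0.0607 when 1 library was left out).

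Of 17 lysosomal membrane protein genes 7 fell and none rose, among them Laptm5 (log2 fold change -5.55 ± 0.32) and Cd68 (-5.45 ± 0.38), both of which are known from immune cells. Of 7 class II genes, whose products meet cathepsin S, 3 fell. H2-DMa, which helps load peptides, averaged 4.10 ± 3.05 against 183 ± 30.7 CPM (log2 fold change -5.48 ± 0.60, edgeR adjusted p = 0.00125), and its partner H2-DMb1 had a log2 fold change of -5.84 ± 1.55 that passed in 2 of 6 fits with 1 library left out. Cd74, the invariant chain that cathepsin S cuts, averaged 23.4 ± 27.7 against 165 ± 14.4 CPM and did not pass (log2 fold change -2.81 ± 1.33, edgeR adjusted p = 0.176).

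In the acidifying pump and the sorting machinery, calls went in both directions. Of all genes tested, 10.4% were called higher and 13.4% lower. The median log2 fold change was 0.01 for the pump list and 0.03 for the sorting list. Of 18 subunits of the vacuolar ATPase, 3 rose, 3 fell and 12 did not pass. Atp6v1g2 and Atp6v1a, of the cytosolic sector, rose by 1.85 ± 0.32 and 1.00 ± 0.17 on the log2 scale, and Atp6v0e and Atp6v0b, of the membrane sector, had log2 fold changes of -1.13 ± 0.23 and -0.84 ± 0.19, the latter passing in 3 of 6 fits with 1 library left out. Among 14 sorting genes, Vps35, of the retromer that recycles sorting receptors, rose by 1.48 ± 0.22 (edgeR adjusted p = 0.00381) and Gnptab, which starts the mannose 6-phosphate tag, by 1.83 ± 0.46 (edgeR adjusted p = 0.0263, passing in 3 of 6 such fits). Nagpa, which finishes the tag, fell by 2.26 ± 0.45 on the log2 scale (edgeR adjusted p = 0.0122, passing in 5 of 6 such fits). Of the 4 TFE factors that bind CACGTG, Tfe3 fell by 1.98 ± 0.48 (edgeR adjusted p = 0.0242, passing in 2 of 6 such fits).

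Of the other cathepsin genes 13 were listed and 4 reached the test. Ctse (35, 80 and 33 counts in TOM negative replicates 1, 2 and 3) and Ctsw (71, 72 and 16) had no count in any TOM positive library. Both were called lower, which rests on counts of the TOM negative libraries alone, and both were named after their values were seen. Ctsk, known from osteoclasts, and Ctso did not pass (log2 fold changes 0.97 ± 0.44 and -0.12 ± 0.24). No other cystatin passed of 3 tested. Cstb, an intracellular inhibitor of cathepsins, averaged 62.5 ± 6.43 against 80.4 ± 20.3 CPM (log2 fold change -0.36 ± 0.23, edgeR adjusted p = 0.307), and Cst7, an inhibitor known from immune cells, 0.222 ± 0.384 against 2.98 ± 0.558 CPM (edgeR adjusted p = 0.179).

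**Figure D5:**
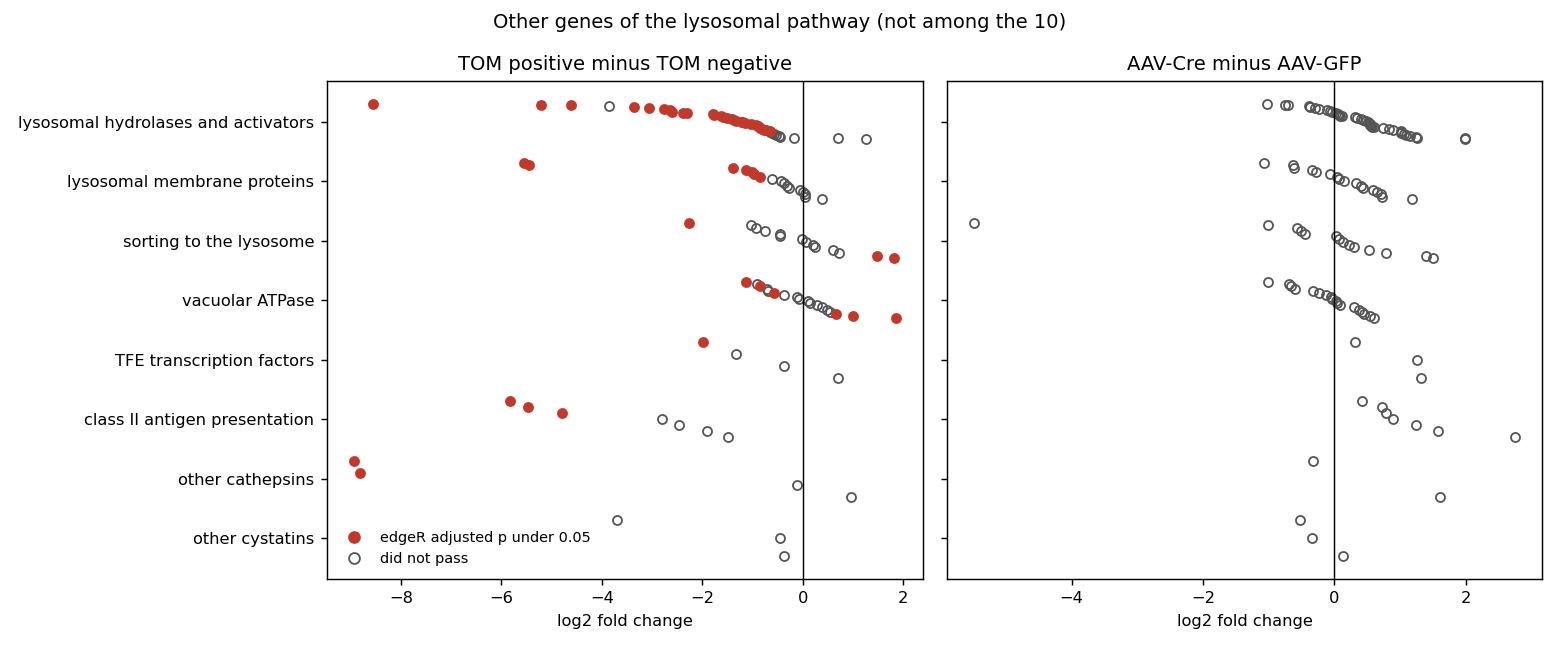
Log2 fold changes of the lysosomal pathway genes other than the 10, by list, in TOM positive minus TOM negative cells (left) and AAV-Cre minus AAV-GFP cells (right), where filled points passed edgeR at an adjusted p under 0.05. On the left 45 filled points lie under 0 and 5 lie above it, and on the right no point is filled, and the points of Acp5, Ctse and Ctsw beyond -8 rest on 0 counts in TOM positive libraries, so that their place is set by the prior count.

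Between AAV-Cre and AAV-GFP cells none of 104 lysosomal pathway genes tested passed with edgeR. At an unadjusted p under 0.05 stood 20 of them (19.2%, beside 18.8% of all genes), 14 higher and 6 lower. DESeq2 called 15 (14.4%, beside 9.94% of all genes), 12 higher and 3 lower. Their median log2 fold change was 0.31, beside -0.16 over all genes tested. Tfe3 was nearest to the threshold among the genes named here, with 54.0, 70.1 and 67.7 CPM in AAV-Cre and 22.5, 30.3 and 27.0 CPM in AAV-GFP libraries (log2 fold change 1.26 ± 0.28, edgeR adjusted p = 0.0556, and 0.00232 with DESeq2). Its groups did not overlap. The direct partners gave log2 fold changes of 0.55 ± 0.34 for Lgmn, 1.10 ± 0.40 for Grn, 0.03 ± 0.35 for Psap, -0.04 ± 0.36 for Glb1, 0.43 ± 0.31 for Neu1, -0.53 ± 0.36 for Cstb, 0.13 ± 1.37 for Cst7 and 2.76 ± 0.97 for Cd74, with edgeR adjusted p of 0.18 or more. For Cd74 AAV-Cre replicate 2 held 592 CPM and replicate 3 held 43.4 CPM, which lay inside the AAV-GFP range of 11.8 to 73.8 CPM.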

How the data were processed

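The deposited tables hold raw counts per gene symbol, not scaled by the authors. The submitters' processing notes name FastQC, Trim Galore, STAR, featureCounts and mm10. Per the file headers, the authors counted the AAV libraries with featureCounts 2.0.1 on the GENCODE vM30 annotation, which belongs to a later assembly than mm10, without strand; the exonic gene length used for levels per kilobase is from the same deposited files. How the TOM table was counted is not given in the sources used here. Per the labels, libraries were made from cells in Trizol with a SMART-Seq kit, and no molecular identifiers are described, so PCR copies count as reads.

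The 6 libraries of each pair of groups were fitted together, apart from the other pair, in edgeR 4.0.16 (R 4.3.3): TMM scaling, filterByExpr at a minimum count of 10, quasi-likelihood test, two-sided, Benjamini-Hochberg over all genes tested, threshold 0.05. SE is the log2 fold change divided by the root of the F statistic. No 2 libraries of a group agreed within sampling noise (chi-square per degree of freedom of 47.7 or more). This value was 149 to 289 between AAV-GFP libraries and 72.0 to 101 between AAV-Cre ones. The steps were tested on simulated data. The 10 genes and all lists were chosen with earlier results of these data known. Named pathway genes are the 2 largest changes per list and direction that passed and averaged 10 CPM or more in the higher group, plus Lgmn, Psap, Grn, Cstb, Cst7, Glb1, Neu1 and Cd74; a gene that this rule takes is not reported here. Likeness used log2 CPM with a prior count of 2. Alternatives were DESeq2 1.42.0, RLE or no scaling factors, no count filter, a replicate block and each library left out. Promoters are from RefSeq on GRCm38.p6.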

Additional observations from a re-analysis of the deposited data

How the results depend on the processing

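Libraries of the same replicate number did not deviate alike from their group means (correlations of deviations from -0.089 to 0.038, none above 0.1). The labels give no pairing, so whether such libraries shared animals is not known. With a replicate block, 1987 genes were called between TOM groups and 0 between AAV groups, and the pathway lists gave 34 and 0. With 1 library left out, the TOM comparison gave 1511 to 3547 genes, 31 to 46 pathway genes, 28 to 42 of them lower and 3 to 5 higher, and the AAV comparison 0 to 296 genes and 0 pathway genes or members. Without a count filter 712 AAV genes were called. DESeq2 called 1531 AAV genes, 15 pathway genes (12 higher, 3 lower) and 1 member. Library totals alone gave 8 pathway genes higher in TOM positive and 1 in AAV-Cre cells. They shifted all TOM log2 fold changes by a median of 0.261 (2204 genes higher and 1532 lower, in place of 1589 and 2046) and the AAV ones by 0.156 (127 and 241, in place of 97 and 303), and all 10 members stayed below 0 in the TOM comparison. Ctsh was the 1 member to change sign: with 1 library left out its AAV log2 fold change ran from -0.40 (without AAV-Cre replicate 2) to 0.44. Of the member values, 59 of 60 AAV values with a library left out and 49 of 50 under other settings kept their direction and side of the threshold. The cause of these differences was not tested. Each member had 299 or more counts in every library, but PCR copies count as reads. The number of molecules sampled is therefore not known, and its part in the spread between libraries was not tested.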

Other observations

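AAV-GFP replicate 2 stood apart for 2 of the receptor genes in the sorting list, Sort1 and Lrp1. Sort1, which encodes sortilin, had 11733 counts there and 2056 and 913 in AAV-GFP replicates 1 and 3, against 4234, 3589 and 3127 in AAV-Cre. Lrp1, an endocytic receptor gene, had 11968 counts in the same library and 1485 and 1858 in the others of its group, against 3631, 1874 and 2655. Igf2r, the large mannose 6-phosphate receptor gene, had 0, 0 and 5 counts in AAV-Cre and 94, 96 and 64 in AAV-GFP libraries. Its log2 fold change did not pass with edgeR (adjusted p = 0.117), while DESeq2 gave an adjusted p of 0.00523. These 3 genes were picked after their values were seen.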
